A study of Homo sapiens with 3 samples.

Results

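The regions described here are H3K27ac peaks that lie in the wide spaces between human protein-coding genes in THP1 cells. A peak was taken if it was under 2500 bp wide and its summit lay more than 100 kb from every protein-coding gene record of hg38, on chromosomes 1 to 22 and X. By this rule 3764 of 48621 H3K27ac peaks were far peaks, or 7.74% (95% exact binomial interval 7.51 to 7.98). The rule used position and width and no measure of height. The other 39494 peaks under 2500 bp, with summits inside a coding gene or within 100 kb of one, are called nearer peaks.

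The data are ChIP-seq, in which DNA pulled down with an antibody is sequenced, from wild type THP1, an established line that grew out of a human monocytic leukaemia. All cells had been given the phorbol ester PMA for 24 h, which turns these cells into adherent, macrophage-like cells. There was 1 library made with an H3K27ac antibody (Abcam, ab4729), 1 with a Sirt1 antibody (CST, 8469S) and 1 input with no antibody, whose signal was not analysed here. The labels give no untreated sample, so nothing below is an effect of PMA. As each antibody has 1 library, no value has a replicate check: no p-value was computed, and each interval covers counting error only.

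H3K27ac is acetylated lysine on the tail of histone H3, a mark of active promoters and enhancers, placed mainly by the acetyltransferases p300 and CBP. Enhancers bind transcription factors and can act on a gene far along the chromosome, and in macrophages many are bound by PU.1, C/EBP and AP-1 factors. SIRT1 is an NAD-dependent deacetylase that removes acetyl groups from histones and from transcription factors.

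No genome sequence was used here, so the letters shown are those of the RefSeq promoters (250 bases before to 50 bases after a start site, GRCh38.p14) that lie whole inside a far peak. There were 51 such promoters, of 47 genes, in 47 far peaks, and all 51 belonged to long noncoding RNA (lncRNA) genes. The limits on position and width let no coding promoter fall inside a far peak, so the lack of coding genes was built in. The 4 given next were picked after their values were seen because they stand for a far peak near an AP-1 gene, for the PU.1/ETS and C/EBP letters, and for great distance from coding genes. Each runs 5′ to 3′ on the gene's own strand. Capitals mark matches on either strand to TGANTCA (AP-1), AGGAAGT (PU.1/ETS), TTGCNNAA (C/EBP) and TGTGGTT (RUNX), and a match is only a match of letters.
LINC02777 (chr1:58904089-58904388, minus strand, no match to the 4 motifs): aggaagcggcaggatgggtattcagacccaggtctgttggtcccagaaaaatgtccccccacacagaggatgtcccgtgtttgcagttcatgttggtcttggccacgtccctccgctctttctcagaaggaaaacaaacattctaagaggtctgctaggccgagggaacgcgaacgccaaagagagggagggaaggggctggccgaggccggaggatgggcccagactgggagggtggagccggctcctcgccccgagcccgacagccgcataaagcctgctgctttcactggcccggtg
LINC00900 (chr11:115760151-115760450, minus strand, C/EBP): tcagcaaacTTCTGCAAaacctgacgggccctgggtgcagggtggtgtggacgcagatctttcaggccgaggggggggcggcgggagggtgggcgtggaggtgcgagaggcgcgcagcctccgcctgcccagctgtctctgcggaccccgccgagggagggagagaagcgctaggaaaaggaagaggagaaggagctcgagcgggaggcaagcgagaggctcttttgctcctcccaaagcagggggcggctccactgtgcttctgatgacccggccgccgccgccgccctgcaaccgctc
JPX (chrX:73944074-73944373, plus strand, PU.1/ETS): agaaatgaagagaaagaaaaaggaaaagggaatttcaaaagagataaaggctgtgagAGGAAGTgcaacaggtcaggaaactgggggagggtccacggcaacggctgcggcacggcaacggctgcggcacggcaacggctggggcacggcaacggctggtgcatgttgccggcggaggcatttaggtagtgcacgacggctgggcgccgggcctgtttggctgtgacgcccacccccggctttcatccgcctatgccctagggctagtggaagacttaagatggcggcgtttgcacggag
LINC01684 (chr21:24428490-24428789, plus strand, PU.1/ETS at 2 places): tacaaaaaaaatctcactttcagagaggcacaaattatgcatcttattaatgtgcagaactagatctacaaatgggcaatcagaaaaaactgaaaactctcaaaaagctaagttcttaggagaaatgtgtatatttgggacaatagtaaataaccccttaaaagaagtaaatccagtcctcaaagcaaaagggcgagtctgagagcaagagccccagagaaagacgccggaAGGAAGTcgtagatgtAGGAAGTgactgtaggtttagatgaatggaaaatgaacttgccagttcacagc

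The far peak over the LINC02777 promoter, chr1:58902690-58905038, had a fold of 24.7 on 112 fragments, 120.1 kb from JUN, the gene of the AP-1 subunit c-Jun. Fold here is the authors' value at the summit, a ratio to the local background; the numbers of fragments were recovered from fold and p. The far peak over the LINC00900 promoter, 255.6 kb from the adhesion molecule gene CADM1, had a fold of 26.6 on 60 fragments. JPX, an lncRNA gene that takes part in turning on XIST, lay 257.5 kb from CHIC1 in a far peak with a fold of 23.8 on 45 fragments. The far peak over the LINC01684 promoter had a fold of 13.9 on 26 fragments and stood 1157 kb from MRPL39, a mitochondrial ribosomal protein gene.

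There were 50268 H3K27ac peaks and 96805 SIRT1 peaks in all. The SIRT1 list was weak, with a median of 3 fragments at a summit against 15 for H3K27ac, and 135 of its 95225 peaks on chromosomes 1 to 22 and X had a q of 0.05 or less. As a check of the cells, 15 of 20 macrophage genes, 13 of 16 genes of AP-1, MAF, EGR and ETS factors and 15 of 16 NF-kB genes had an H3K27ac peak within 1 kb of an end of the gene record, where 57.1% of all 19817 coding genes did. The defining macrophage genes CD163, MRC1, MARCO, CD36 and LYZ had none. Of genes of other cell types, 1 of 6 T cell, 2 of 5 B cell, 1 of 5 neuron, 2 of 4 erythroid, 0 of 4 hepatocyte and 0 of 5 epithelial genes did.

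Far peaks were somewhat narrower and lower than nearer peaks. Their median width was 523 bp (508 to 542), against 600.0 bp (593 to 606) in nearer peaks. Their median fold was 5.43 (5.29 to 5.55), against 5.77 (5.72 to 5.83). A typical far peak thus rested on 12 fragments at its summit, and a typical nearer peak on 14. The gap was widest among tall peaks. A fold of 10 or more was reached by 581 far peaks, 15.4% (14.3 to 16.6), and by 9893 nearer peaks, 25.05% (24.6 to 25.5). A fold of 20 or more was reached by 118 far peaks, 3.13% (2.60 to 3.74), and by 9.53% of nearer peaks (9.24 to 9.82). These intervals do not overlap.

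**Figure D1:**
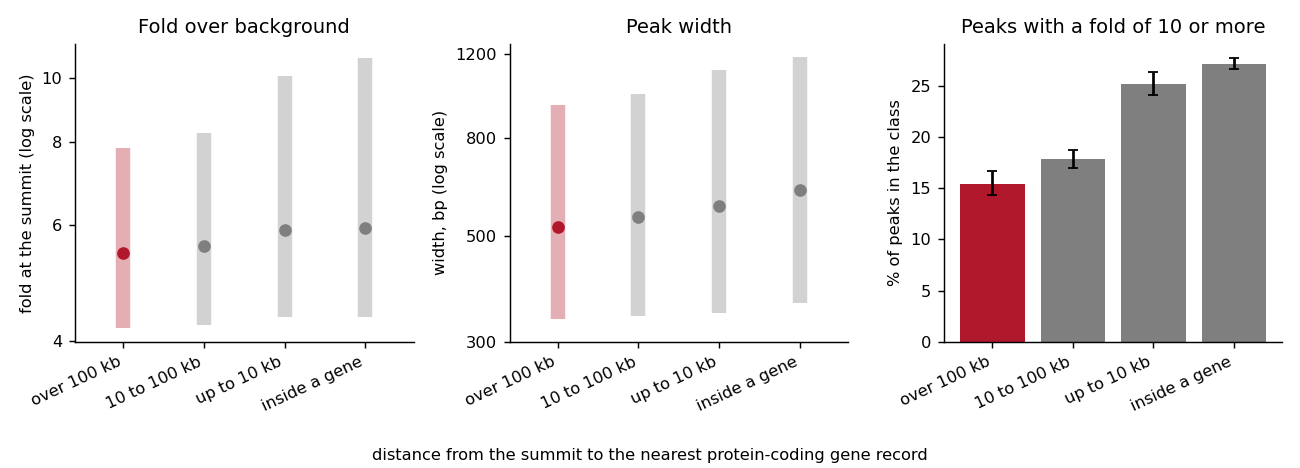
Fold at the summit (left, log scale) and width (middle, log scale) of H3K27ac peaks under 2500 bp by distance from coding gene records; points are medians and bars run over the middle quartiles. At right, the percent of peaks in each class with a fold of 10 or more, with 95% exact binomial intervals: 15.4% of far peaks, 17.9% at 10 to 100 kb, 25.2% up to 10 kb and 27.1% inside a gene.

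Peaks at 10 to 100 kb were closer to the far peaks than to the peaks inside genes, while peaks up to 10 kb away were closer to those inside genes. At 10 to 100 kb the median fold was 5.58 and 17.9% of peaks (17.0 to 18.7) reached a fold of 10, up to 10 kb the median was 5.88 and 25.2% (24.0 to 26.4) did, and inside genes the median was 5.93 and 27.1% (26.6 to 27.7) did. At matched width the difference in fold was small in narrow peaks. Among peaks under 400 bp the median fold was 4.31 in 1318 far peaks and 4.28 in 12215 nearer peaks. Among peaks of 1500 to 2500 bp it was 12.9 in 407 far peaks and 16.1 in 6086 nearer peaks. Height varied little with distance beyond 100 kb. The median fold was 5.43 at 100 to 200 kb (1836 peaks), 5.40 at 200 to 500 kb (1405), 5.54 at 500 to 1000 kb (410) and 5.22 beyond that (113).

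Far peaks were thinly sown. Over the 875 Mb lying more than 100 kb from coding genes on both sides there were 4.26 far summits per Mb (exact Poisson interval 4.13 to 4.40), leaving out 35 far peaks beyond the outermost genes of a chromosome. There were 13.0 summits per Mb at 10 to 100 kb, 24.9 up to 10 kb and 20.8 inside genes. SIRT1 peaks showed no such fall, with 32.2 per Mb in the far zone (31.8 to 32.6), 32.9 at 10 to 100 kb, 29.0 up to 10 kb and 32.3 inside genes. The lists passed unlike thresholds, however. All 48621 H3K27ac peaks had a q of 0.05 or less, but only 135 of 95225 SIRT1 peaks did. The even density is thus that of a weak list and does not show where SIRT1 sits. Unsequenced gaps of the assembly were not taken out of the lengths of the zones, and the same lengths serve both antibodies.

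**Figure D2:**
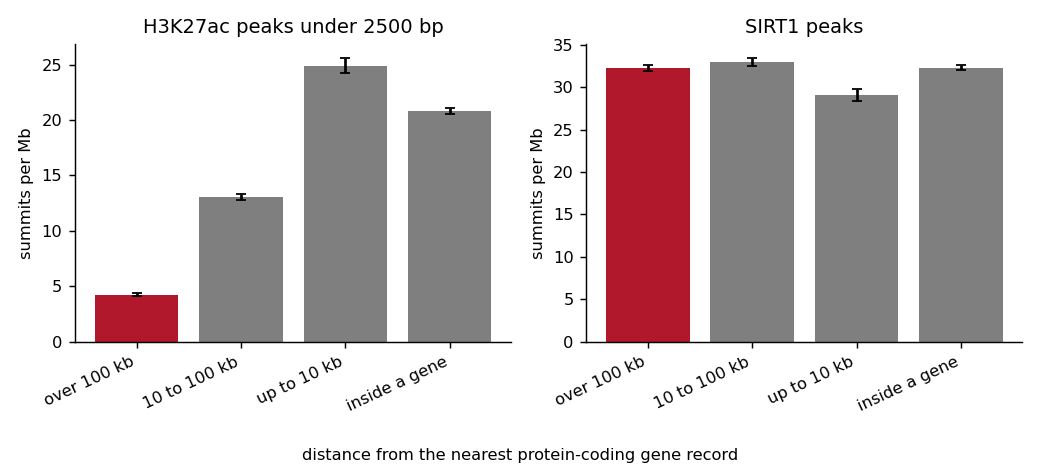
Peak summits per Mb by distance from coding gene records, for H3K27ac peaks under 2500 bp (left) and all SIRT1 peaks (right), with 95% exact Poisson intervals. H3K27ac has 4.26 per Mb in the far zone and 24.9 up to 10 kb from a gene, while SIRT1 stays between 29.0 and 32.9. The lists passed unlike thresholds, and few SIRT1 peaks had a q of 0.05 or less.

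The far peaks were unevenly spread over that space. Between neighbouring coding genes there were 1640 stretches over 200 kb long. Of these, 954 held no far peak, and they made up 39.4% of the far length. Their median far length was 0.138 Mb, and the longest had 17.8 Mb, on chromosome 9. Unsequenced gaps and centromeres were not taken out of these lengths, so a lack of peaks need not be a lack of the mark. In contrast, 105 stretches with 10 or more far peaks held 1940 far peaks, 51.5% of all, in 12.8% of the far length. Both groups were set by the count of far peaks, so part of this contrast is built in. The empty stretches included that between the cadherin genes CDH8 and CDH11 on chromosome 16. It had 2.71 Mb of far length, no H3K27ac peak of any kind and 124 SIRT1 peaks. The stretch between PABPC4L and PCDH18 on chromosome 4, with 3.12 Mb, likewise had 0 H3K27ac and 106 SIRT1 peaks. These SIRT1 counts are of the weak list.

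**Figure D3:**
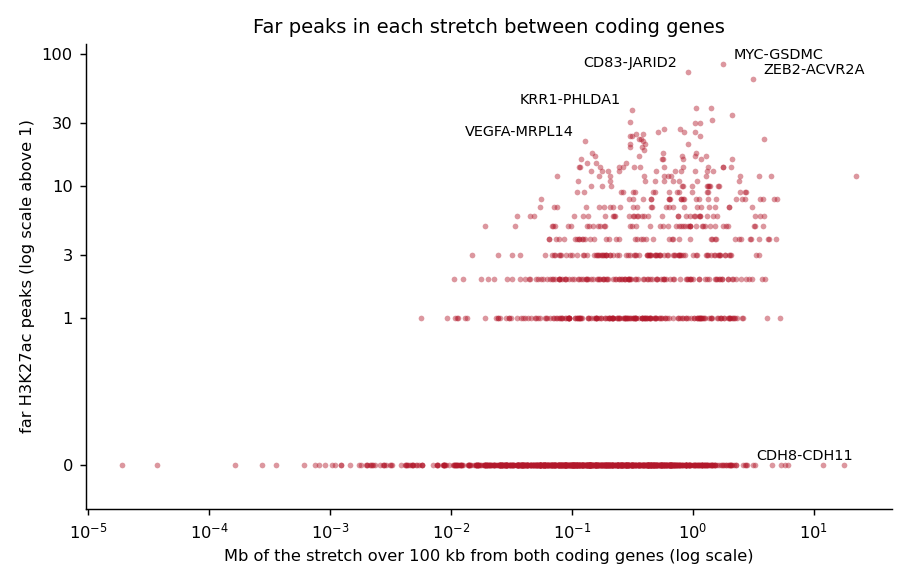
Each point is 1 of 1640 stretches between neighbouring coding genes, placed by its length over 100 kb from both genes (log scale) and by its number of far peaks (log scale above 1). MYC-GSDMC has the highest number, 84, VEGFA-MRPL14 has 22 in a far length of 0.127 Mb, and CDH8-CDH11 has 0 in 2.71 Mb.

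Most far peaks were not isolated from other acetylated regions. Another H3K27ac summit lay in the 25 kb window centred on the summit of 2852 far peaks, 75.8% (74.4 to 77.1), where 78.2% of all H3K27ac peaks had one and 77.7% of nearer peaks (77.3 to 78.1). The median gap to the nearest summit was 1885 bp for far peaks (1781 to 2015) and 2161 bp for nearer peaks. Peaks that truly stood alone were nonetheless commoner among them. No other summit lay within 100 kb of 357 far peaks, 9.48% (8.57 to 10.5), against 3.05% of nearer peaks (2.88 to 3.22). H3K27ac peaks of any kind were also joined into domains, by edges and not by summits. Peaks were joined where the gap between their edges was no longer than that 25 kb window reaches to either side. The far peaks fell into 1811 domains. Of these 968 held 1 far peak, 153 held 5 or more and 20 held 10 or more. Domains of 5 or more H3K27ac peaks held 32.5% of far peaks (31.0 to 34.0) and 41.7% of nearer peaks (41.2 to 42.1). Alone in their domain were 23.8% of far peaks (22.4 to 25.1) and 21.3% of nearer peaks (20.9 to 21.7). The word isolated thus fits the distance of far peaks from genes but not, for most, their distance from each other.

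Of the largest domains, 4 held 18 far peaks each. A domain of 80.0 kb, chr12:75738826-75818834, lay between KRR1, a gene for ribosome assembly, and PHLDA1, with its far peaks 217 to 256 kb from the nearer of the pair, and overlapped the lncRNA record LOC105369844. A domain of 62.7 kb, chr4:147314315-147376968, lay 104 to 167 kb from EDNRA, which encodes an endothelin receptor, with no noncoding record noted at its far peaks. Next to each other on chromosome 6 were a domain of 68.5 kb, chr6:14614262-14682757, and another of 68.9 kb, chr6:14699638-14768488. Both lay between CD83, the gene of a surface protein of activated antigen-presenting cells, and JARID2, which encodes a partner of the Polycomb complex that methylates histone H3.

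The space between CD83 and JARID2 was the clearest run of far peaks. It held 73 far peaks in 0.909 Mb of far length, or 80.3 per Mb, and 14 further peaks of 2500 bp or more. Fold ran from 3.04 to 41.8 with a median of 5.68, and 14 peaks reached 10. The median background there was at the floor, the lowest background of the list, and 2 of the 73 were over 2 floors. The lncRNA record LOC101928354 covered 29 of them.

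The tallest of the run, chr6:14742559-14744775, had a fold of 41.8 on 80 fragments and was 503 kb from JARID2.

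Beside MYC, the gene of a growth-promoting transcription factor, the stretch up to GSDMC on chromosome 8 held 84 far peaks, the highest number of any stretch. Their fold ran from 3.04 to 22.2, with a median of 4.83. The lncRNA record PVT1 covered 28 and CCDC26, a record known from leukaemia studies, covered 18. The 2 tallest were a peak in CCDC26, 287 kb from GSDMC, with a fold of 22.2 on 54 fragments, and a peak in PVT1, 189 kb from MYC, with a fold of 19.3 on 44 fragments.

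Between ZEB2, which encodes a repressor used in myeloid and dendritic cell development, and the activin receptor gene ACVR2A, 65 far peaks were spread over 3.12 Mb of far length. Their fold ran from 3.05 to 29.7 with a median of 5.09. The tallest, chr2:145007357-145009741, lay in the lncRNA record TEX41, 488 kb from ZEB2.

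A much denser run stood between KRR1 and PHLDA1, with 38 far peaks in 0.314 Mb, or 121 per Mb. Of these, 29 lay in LOC105369844. Its tallest far peaks had folds of 37.4 on 85 fragments, chr12:75639787-75642160, and 26.3 on 53 fragments, chr12:75721710-75723911.

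Some of the other stretches with many far peaks are described next; others with as many, such as DIPK2B to KRABD4 and IGFBP3 to TNS3 with 30 each and NDFIP2 to SPRY2 with 27, are not. RNF144A to ID2, an inhibitor of helix-loop-helix factors, had 39 far peaks, 17 of them in LINC00299. DAB2, an endocytic adaptor gene, to PTGER4, which encodes a prostaglandin E2 receptor, also had 39, and 31 of those were over 2 floors of background. IRF2BP2 to TOMM20 had 31, of which 28 were over 2 floors. CITED2, encoding a p300 and CBP binding protein, to LOC124901415 had 35 with a tallest fold of 31.2.

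RUNX1, a haematopoietic transcription factor gene, to SETD4 had 27, of which 16 lay in LOC100506403. KLF6, encoding a zinc finger factor, to AKR1E2 had 26 with a tallest fold of 14.2. VEGFA, the gene of a blood vessel growth factor, to MRPL14 had 22, or 173 per Mb, of which 8 lay in LINC01512 and 6 in SCIRT. Of these 22, 16 were over 2 floors of background. All stretches named here were chosen after their numbers were seen, and no link between a peak and a gene was measured.

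**Figure D4:**
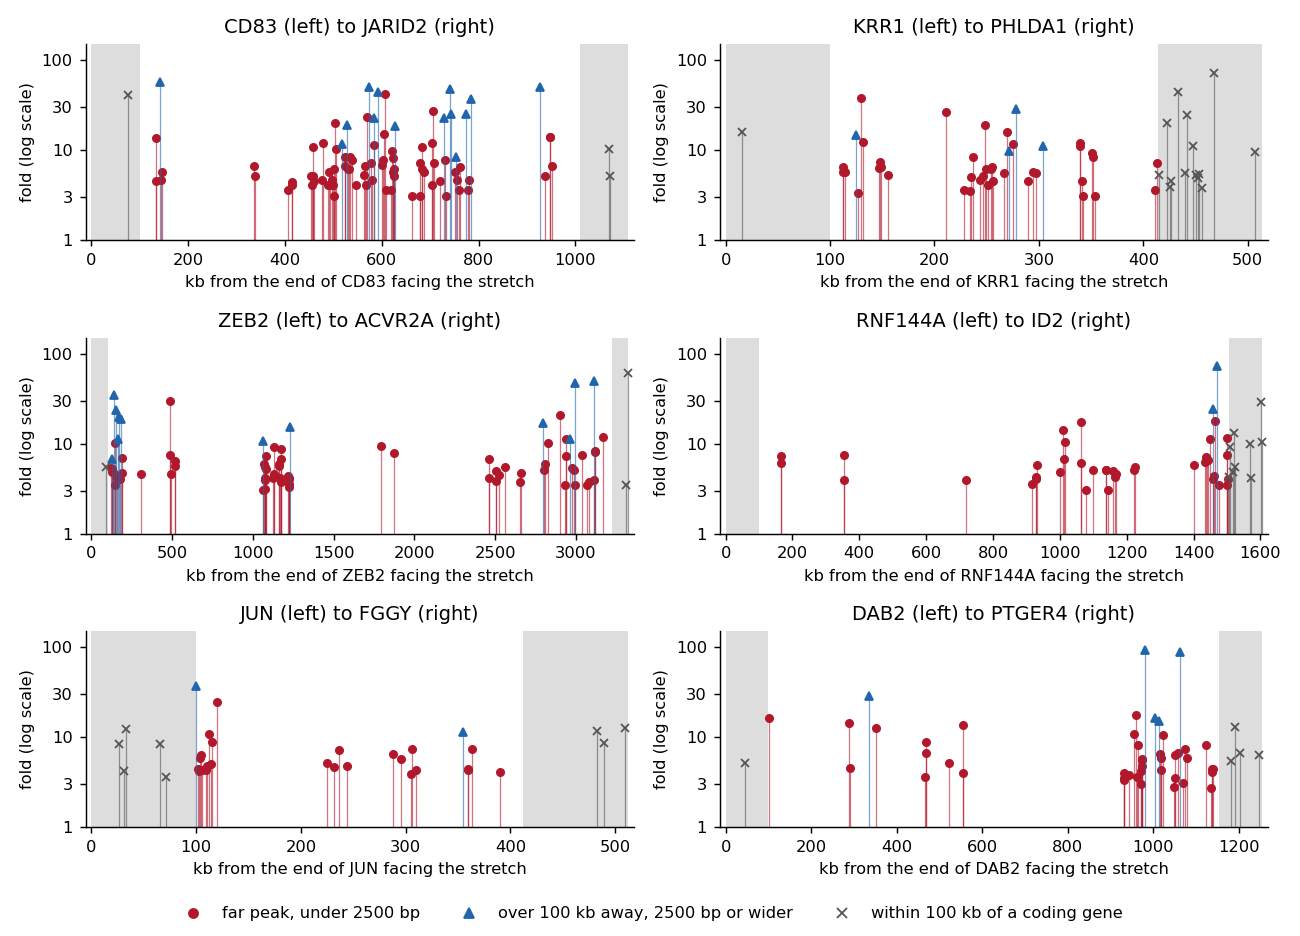
Fold (log scale) of every H3K27ac peak along 6 stretches between coding genes, by distance in kb from the end of the left gene. Grey bands are the 100 kb next to each gene; circles are far peaks, triangles are peaks of 2500 bp or more outside the bands and crosses are peaks inside the bands. In CD83 to JARID2 most of the 73 far peaks stand near the middle, and in JUN to FGGY the tallest of 24, with a fold of 24.7, stands 120.1 kb from JUN.

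The 10 far peaks of highest fold were on 7 chromosomes and ran from 37.2 to 55.7. The tallest, chr2:64865268-64866013, had a fold of 55.7 on 145 fragments and lay 123 kb from SLC1A4, the gene of a neutral amino acid transporter. A peak 107.9 kb from ZNF92, chr7:65508158-65510645, had a fold of 53.8 on 140 fragments. A peak 199 kb from PREP, on the side towards PRDM1, had a fold of 49.2 on 109 fragments, chr6:105600183-105602546. These 3 thus stood above the remaining 7, which reached at most 43.1.

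Of those 7, one lay 200.3 kb from AHR, the gene of the aryl hydrocarbon receptor, with a fold of 43.1 on 84 fragments. Others were nearest to the olfactory receptor gene OR4C12 (42.1), JARID2 (41.8), CRISPLD1 (39.5), KRR1 (37.4) and the kinase gene VRK2 (37.2). All 10 had another H3K27ac summit within 1295 bp.

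A set of 5 far peaks that were not among these 10 had the highest −log10 q of the rest, from 149 to 190. Their nearest coding genes were SPATA31A1, AVL9, OR4F15, LOC124900275 and LOC107987020, and their backgrounds were raised, at 2.42 to 4.85 floors. The 3 far peaks most distant from coding genes were on chromosome 4, between PCDH7 and ARAP2. The farthest, chr4:33512163-33512428, lay 2365 kb from PCDH7, a protocadherin gene, and had a fold of 4.13 on 7 fragments. The others, 2296 and 2295 kb from ARAP2, had folds of 7.78 and 3.70.

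At the edges of the rule, the 2 peaks just inside the distance limit lay 100007 bp from GLI3 with a fold of 3.92 and 100009 bp from SSBP2 with a fold of 21.1. The 2 just outside lay 99963 bp from HCCS with a fold of 5.16 and 99949 bp from ZNF706 with a fold of 4.12. The 2 just inside the width limit were both 2494 bp wide, with folds of 12.2 and 11.2. The 2 just outside were 2500 and 2511 bp wide, with folds of 14.5 and 22.2.

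Over all 19817 coding genes, 914 were the nearest coding gene of at least 1 far peak. The gene lists below are short, and no difference between a list and that share was tested. Some of the 20 macrophage genes were the nearest coding gene of a far peak. CEBPB, the gene of C/EBP beta, was nearest to 7, at 108 to 149 kb, with folds from 3.41 to 16.7.

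Of the 16 AP-1, MAF, EGR and ETS genes, 3 were nearest to far peaks. JUN had 15, at 102 to 244 kb, with folds from 4.20 to 24.7. In addition to the peak at LINC02777 shown above, a peak in the record JUN-DT, 112.4 kb from JUN, had a fold of 10.9 on 29 fragments. ETS1 had 5, with a highest fold of 7.90, and ETS2 had 4, of which the peak 101 kb away had a fold of 11.9.

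Of 16 NF-kB genes 1 was nearest to far peaks, TNFAIP3, whose product A20 restrains NF-kB, with 14 at 111 to 173 kb. Their folds ran from 2.78 to 10.8, and the tallest, chr6:137733865-137734859, had 24 fragments. Among genes of other cell types, 1 of 6 T cell genes, BCL11B, was nearest to 1 far peak, with a fold of 28.3 at 414 kb. Of 5 B cell genes 1, EBF1, was nearest to 4, with folds from 3.05 to 15.2. The 5 neuron, 4 hepatocyte, 5 epithelial and 4 erythroid genes had none.

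Far from coding genes, the acetylated regions often lay in noncoding records. The summit was inside a noncoding or pseudogene record in 1452 far peaks, 38.6% (37.0 to 40.2), where 17.2% of all H3K27ac peaks and 14.9% of nearer peaks were. The rule itself keeps far peaks out of coding genes, and of the peaks at 10 to 100 kb, which are outside them too, 32.2% were in such a record (31.2 to 33.3). Of the 1452, 1353 were in lncRNA records. LOC101928354 and LOC105369844 held 29 each, PVT1 28, LOC105376387 19 and CCDC26 18. On the other hand, only 187 of the 3764 lay more than 100 kb from every gene record of any kind.

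Few far peaks lay at a start site. The summit was within 1 kb of a RefSeq start in 117 of 3427 far peaks, 3.41% (2.83 to 4.08), where 22.7% of all H3K27ac peaks were; chromosome 8 had no promoter in the table and is not counted. At 10 to 100 kb 4.76% of peaks were near a start (4.29 to 5.28). The nearer peaks as a whole, with 22.7%, include the starts of coding genes, which the rule takes out of the far peaks.

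The 51 promoters whole inside far peaks were less rich in G and C than the 6206 whole inside nearer peaks. None of these is from chromosome 8, which had no promoter in the table. The median GC content was 55.7% in far peaks and 66.7% in nearer peaks, 58.7% over all 34991 promoters and 50% over the 12836 noncoding ones. The observed over expected ratio of CpG had a median of 0.533 in far peaks and 0.860 in nearer peaks. The nearer promoters include those of coding genes, while the far ones hold none, so like is not compared with like here.

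Matches to short motifs were counted on both strands, and each count is small. The C/EBP letters TTGCNNAA were in 9 of 51 promoters in far peaks, 17.6% (8.40 to 30.9), in 6.03% of those in nearer peaks and in 10.4% of all promoters. GATA letters AGATAA were likewise in 9 of 51, against 3.93% in nearer peaks and 10.3% of all. AP-1 letters TGANTCA were in 2 of 51, 3.92% (0.478 to 13.5), against 4.19% in nearer peaks and 7.68% of all.

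The PU.1/ETS letters AGGAAGT were in 4 of 51, 7.84% (2.18 to 18.9), against 8.49% in nearer peaks and 8.25% of all. The ETS core CCGGAAG was in 7, 13.7% (5.70 to 26.3), against 24.8% in nearer peaks and 10.3% of all. RUNX letters TGTGGTT were in 1 of 51, against 2.34% in nearer peaks and 4.28% of all. Letters of an NF-kB motif were in 0 of 51, which allows a share of up to 6.98%. They were in 1.74% of promoters in nearer peaks and 1.40% of all. Of the other motifs searched, the E-box CANNTG was in 35 of 51 promoters (58.2% in nearer peaks and 68.7% of all). For the rest, the shares in nearer peaks and in all promoters follow in that order. CACGTG was in 3 (10.2% and 7.27%), the NRF1 letters GCGCATG in 4 (8.07% and 4.44%) and the TATA box TATAAA in 4 (3.46% and 11.5%). The IRF letters were in 3 (2.98% and 3.57%) and a CTCF core in 1 (0.145% and 0.120%). CACGTG is also a CANNTG match, and the ETS core and PU.1/ETS letters can overlap. The shares for C/EBP and GATA in far peaks exceeded those in nearer peaks and stood near those of the noncoding promoters, 13.5% and 14.5%. In noncoding promoters the shares of AP-1, PU.1/ETS, ETS core and RUNX letters were 10.3%, 8.67%, 5.85% and 5.27%. Those of NF-kB, IRF, NRF1 and CTCF core letters were 1.38%, 4.27%, 3.02% and 0.179%. CANNTG was in 74.8% of them, CACGTG in 5.42% and the TATA box in 15.1%.

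MicroRNA genes also lay among the far peaks. Of 1558 RefSeq hairpins, 25 had the edge of a far peak no farther off than the 25 kb window reaches to either side. Hairpins near other H3K27ac peaks were not counted, so this number has no comparison. The hairpins MIR6724-2, MIR6724-4 and MIR10396B lay by far peaks on chromosome 21 with backgrounds of 53.3 to 65.9 floors. The mature forms of 5 of the 25 hairpins follow, chosen after their places were seen because they include a pair of neighbours with 1 seed. Each runs 5′ to 3′, with the seed, bases 2 to 8, in capitals.
hsa-miR-221-3p (chrX:45746180-45746202, minus strand): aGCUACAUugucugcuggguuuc
hsa-miR-222-3p (chrX:45747036-45747056, minus strand): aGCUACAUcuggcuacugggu
hsa-miR-29a-3p (chr7:130876748-130876769, minus strand): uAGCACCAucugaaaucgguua
hsa-miR-29b-3p (chr7:130877467-130877489, minus strand): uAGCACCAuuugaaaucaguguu
hsa-miR-148a-3p (chr7:25949922-25949943, minus strand): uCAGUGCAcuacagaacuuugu

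miR-221 and miR-222 share the seed GCUACAU, and the far peak nearest to both hairpins had its summit in the record MIR222HG. Within the same reach of each hairpin there were 6 far peaks, with folds from 4.65 to 9.81 and a median of 6.95. These 6 belonged to a domain of 15 far peaks 549 to 609 kb from the nearest coding gene. The background of the nearest one was at the floor of the list. miR-29a and miR-29b share the seed AGCACCA, and the far peak nearest to both hairpins had its summit in the record LINC-PINT. The nearest far peak was 8228 bp from the hairpin of the first and 7499 bp from that of the other, with a fold of 4.65 on 8 fragments. The hairpin of miR-148a, with the seed CAGUGCA, was 897 bp from a far peak with a fold of 4.58 on 11 fragments, just under the medians of far peaks. These peaks do not show whether a microRNA was made.

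The share of peaks that were far differed between chromosomes. It was highest on chromosome 6, at 15.1% (415 peaks, 13.8 to 16.5), chromosome 13, at 14.9%, and chromosome 8, at 14.6%. It was lowest on the gene-rich chromosome 19, at 0.164%, or 4 peaks. Per Mb of far length, chromosome 6 had 8.11 far peaks, chromosome 8 7.26 and chromosome 12 7.02, while chromosome 19 had 0.632 and chromosome 16 0.992. Unsequenced gaps and centromeres were not taken out of these lengths either, so a low value need not be a lack of the mark. On chromosome 16 a large part of the far length lay in a single stretch, LOC124903767 to SHCBP1, with no H3K27ac peak of any kind. The part of such stretches in the differences between chromosomes was not tested.

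Background moved with place as well. Over 2 floors of background were 856 far peaks, 22.7% (21.4 to 24.1), where 33.7% of all H3K27ac peaks and 32.1% of nearer peaks were. By chromosome, 54.0% of far peaks on chromosome 1 and 45% on chromosome 20 were over 2 floors, against 1.39% on X. The part of background in the fold and number of peaks on each chromosome was not tested. In addition, 9 far peaks were over 10 floors, with a median of 64.1 and up to 155. All 9 lay in chr21:8204885-10343412, on the short arm of chromosome 21, with a median fold of 3.84.

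Far peaks overlapped SIRT1 about as often as nearer peaks. A SIRT1 peak shared at least 1 base with 51 far peaks, 1.35% (1.010 to 1.78), where 1.45% of all H3K27ac peaks and 1.29% of nearer peaks (1.18 to 1.40) had one. The interval for far peaks holds the nearer value. By width, the shares in far and nearer peaks were 1.44% and 1.32% under 400 bp, and 1.41% and 1.14% at 400 to 800 bp. They were 1.57% and 1.17% at 800 to 1500 bp. At 1500 to 2500 bp the share was 0.491% of far peaks, or 2 of 407 (0.0596 to 1.76), and 1.69% of nearer peaks (1.38 to 2.05). SIRT1 summits fell inside far peaks at 12.8 per Mb (8.92 to 17.8), against 11.4 per Mb inside nearer peaks (10.2 to 12.6). In the far zone as a whole there were 32.2 per Mb, so summits of SIRT1 were fewer per Mb inside far peaks than around them.

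The overlap also varied with the background of the H3K27ac library. It was 1.93% (1.03 to 3.28) of the 674 far peaks at the floor and 2.36% of nearer peaks there. At background above the floor and up to 2 floors it was 1.52% of far peaks and 1.48% of nearer peaks. At 2 to 3 floors it was 0.296% of far peaks, or 2 of 676, and 0.563% of nearer peaks. Over 3 floors it was 1.11% of far peaks, or 2 of 180 (0.135 to 3.96), and 0.437% of nearer peaks. The part of this in the overlap was not tested.

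**Figure D5:**
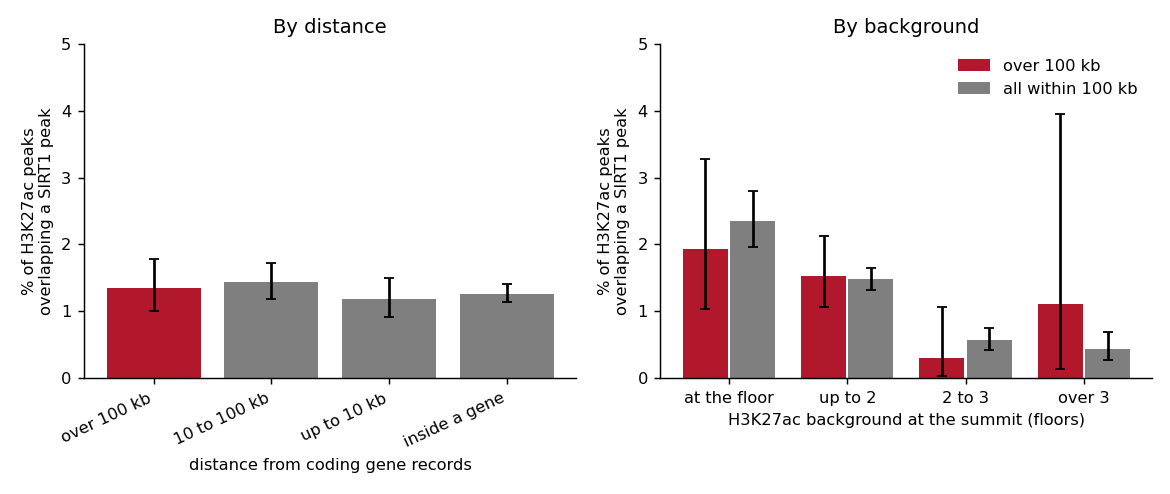
Percent of H3K27ac peaks under 2500 bp that share at least 1 base with a SIRT1 peak, by distance from coding gene records (left) and by background in floors (right), with 95% exact binomial intervals. Far peaks (1.35%) stand within the range of the other classes, 1.18% to 1.43%, and both groups are lower at 2 to 3 floors than at the floor; over 3 floors the far value, 1.11%, rests on 2 peaks.

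The SIRT1 peaks at far peaks were about as small as in the SIRT1 list as a whole. The best SIRT1 peak had 2 fragments at 16 far peaks, 3 at 26 and 4 or more at 9, where 37728, 42593 and 14902 of all 95225 SIRT1 peaks did. Their median fold was 2.82, against 2.78 in the whole list. The highest −log10 q among them was 0.614, so 0 of 51 reached a q of 0.05, where 135 of 95225 did in the whole list.

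Far peaks that the rule names for a SIRT1 peak of 4 or more fragments, and that are reported here, were nearest to APCDD1, DTWD2, FGF18 and ZHX2, with H3K27ac folds of 7.75, 4.05, 14.4 and 12.2 in that order. The far peak near FGF18, a fibroblast growth factor gene, lay in a domain of 15 H3K27ac peaks.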

How the data were processed

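Peak lists of the H3K27ac and the SIRT1 library were used. The submitters' processing notes name MACS2, deepTools and the build hg38; for the aligner, the control and the versions, the entry is: not given in the sources used here. The authors deposited the fold (a ratio) at each summit, the −log10 p and the −log10 q. Their deposited score, a whole number, equals 10 times −log10 q in H3K27ac peaks but 10 times −log10 p in SIRT1 peaks, without the decimals. The total number of reads is unknown. The members and the gene lists were chosen with earlier results of these data known.

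Fragments and background were recovered from fold, taken as fragments plus 1 over background plus 1, and a Poisson p; 1 solution was found for 99.984% (H3K27ac) and 99.998% (SIRT1) of the peaks. The step was tested on simulated data. The floor, the lowest background, was 0.937 fragments for H3K27ac and 0.362 for SIRT1. Distances were taken to 19817 protein-coding records of RefSeq (GRCh38.p14) placed on the chromosomes themselves. Intervals are 95% exact binomial (Clopper-Pearson) or Poisson, and for medians from order statistics; fragments without molecular identifiers are not independent molecules.

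Peaks named were the 10 highest in fold, the 5 highest in −log10 q among the rest, the 3 farthest, the 3 domains with most far peaks (4 tied), up to 5 with a SIRT1 peak of 4 or more fragments, those beside each limit, and up to 10 nearest to a macrophage, AP-1 or NF-kB gene. Some peaks that this rule selects are not reported here. Other peaks and genes were named after their values were seen. Base content and motifs were planned for windows at the summits; no genome sequence was used here, so RefSeq promoters inside the peaks took their place. The input was not analysed here. Tools were scipy 1.17.1, matplotlib 3.10.9, pandas 2.3.3, numpy 2.4.6 and Python 3.11.15.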

Additional observations from a re-analysis of the deposited data

Results flagged for a closer look

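Another 401 H3K27ac peaks lay more than 100 kb from every coding gene record but were 2500 bp or wider, and the width limit leaves them out of every comparison above. They had a median fold of 22.2 (middle quartiles 15.3 to 30.5), a median of 55 fragments at the summit and a median width of 3546 bp, with the widest at 19863 bp. They were singled out because no comparison used them.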

How the results depend on the processing

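All values are of far peaks, and those given are the ones that left the 95% interval of the reported value, or its number by over 1.5 times; the cause was not tested. With limits of 50 and 200 kb there were 6087 and 1928 far peaks, 12.52% and 3.97% of all, with a neighbour in 77.2% and 73.7%, alone in their domain in 22.2% and 26.1%, and with 83 and 27 promoters inside. With no width limit the share was 8.57%, median width 582 bp, fold 5.71 and fragments 13; under 1000 bp these were 5.99%, 424.5 bp, 4.79 and 11. With a −log10 q of at least 5 there were 2350 (6.92%), with medians of 746 bp, a fold of 7.04 and 16 fragments; with a fold of at least 4 the share was 7.43% and the medians 614 bp, 6.10 and 14. Distance from all gene records left 187 (0.385%), with medians of 544 bp, 5.66 and 1.35 floors. At up to 2 floors of background the share was 9.01% and the medians 504 bp, 5.58, 11 fragments and 1.22 floors. The SIRT1 share was 0.452% when the overlap covered 50% of the peak, 4.44% within 1 kb and 0.239% for SIRT1 peaks of 4 or more fragments. A neighbour within 5 and 25 kb on either side was found for 67.2% and 81.7%, with 30.8% and 18.1% alone in their domain (23.8% as reported). A noncoding record was within 10 kb of 56.0% (41.6% within 1 kb). Of the settings, 47 other values stayed within them, among them every value with the coding records as listed, other contigs included (3751 far peaks), chosen after seeing the data. Windows of 50 and 250 bases at the summit were not run, since no genome sequence was used. No paired analysis was possible because there is 1 library per antibody. The unknown number of reads and the few fragments of the SIRT1 peaks limit what an overlap can show.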
